A study of Homo sapiens with 12 samples.

Results

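The mRNAs of 10 human genes for iron uptake, storage, export and sensing were followed in FDX2-iKO ES2 cells: TFRC, STEAP3 and SLC11A2 for uptake, FTH1, FTL and NCOA4 for storage and release from storage, SLC40A1 for export, and ACO1, IREB2 and FBXL5 for sensing. The genes were chosen by symbol, each symbol matched 1 Ensembl identifier, and they make up 10 of the 58735 gene identifiers in the count table. Of these, 9 had enough counts to be tested among 16891 genes, and SLC40A1 did not. ES2 is a human ovarian cancer line. FDX2 is a mitochondrial ferredoxin that hands electrons to the machinery assembling iron-sulfur (Fe-S) clusters. In FDX2-iKO cells the endogenous FDX2 gene was knocked out with CRISPR-Cas9, and an HA-tagged FDX2 that the editing cannot cut was supplied from a TetON promoter, so that doxycycline (Doxy) keeps FDX2 expressed. The endogenous knockout is therefore shared by all 4 conditions, and FDX2 loss means culture without Doxy (wo Doxy). No cells without this construct are among the libraries, so an effect of Doxy itself cannot be told apart from that of FDX2. The 2 conditions at 20% O2 were kept there for 6 days with or without Doxy, and the 2 conditions at 3% O2 had 4 days at 20% O2 followed by 3 days at 3% O2, so the total time in culture differed along with the oxygen. Each condition has 3 libraries, 12 in all. FDX2-iKO lines are clones, and the methods of the study name clone #1 as the default without naming a clone for the RNA, so all values are likely those of 1 clone. The study calls its RNA-seq replicates biological, but nothing says that they were separate cultures, and p-values then measure only the spread between these libraries. In bulk RNA, fewer cells holding an mRNA and less of it per cell cannot be told apart.

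Cells take up transferrin-bound iron through the transferrin receptor encoded by TFRC, STEAP3 reduces the iron in endosomes, and SLC11A2 (DMT1) carries it into the cytosol. Surplus iron is stored in ferritin, a shell of heavy chains (FTH1) and light chains (FTL), from which NCOA4 delivers it to lysosomes, while SLC40A1 (ferroportin) exports it. The iron regulatory proteins IRP1, encoded by ACO1, and IRP2, encoded by IREB2, bind a hairpin called the iron-responsive element (IRE) when iron is scarce. Binding to the 3′ UTR of TFRC protects that mRNA from decay, whereas binding to the 5′ UTRs of the ferritin and ferroportin mRNAs blocks their translation and need not change their amount. IRP1 carries an Fe-S cluster when it acts as an aconitase and binds IREs without it, and FBXL5 is the ubiquitin ligase subunit that removes IRPs when iron and oxygen are present.

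The hairpins are shown because their place differs between the TFRC mRNA and the ferritin and ferroportin mRNAs. IRPs are known to govern the amount of the former and the translation of the latter. The UTRs of GENCODE release 29 transcripts were searched for an unpaired C, a stem of 5 pairs (G-U pairs allowed) and a loop of the letters CAGTGN. Of the 10 genes, 4 held such a core, against 0.81% of 19666 protein-coding genes. Each site is given 5′ to 3′ with the 6 loop letters in capitals.
FTH1 5′ UTR, chr11:61967574-61967602 (GRCh38, minus strand): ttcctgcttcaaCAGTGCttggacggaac
FTL 5′ UTR, chr19:48965335-48965363 (plus strand): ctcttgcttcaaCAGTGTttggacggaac
SLC40A1 5′ UTR, chr2:189580661-189580689 (minus strand): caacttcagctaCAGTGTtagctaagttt
TFRC 3′ UTR, chr3:196050979-196051007 (minus strand): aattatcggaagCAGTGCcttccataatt
TFRC 3′ UTR, chr3:196050575-196050603 (minus strand): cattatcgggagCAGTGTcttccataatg
TFRC 3′ UTR, chr3:196050510-196050538 (minus strand): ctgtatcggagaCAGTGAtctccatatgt
TFRC 3′ UTR, chr3:196050463-196050491 (minus strand): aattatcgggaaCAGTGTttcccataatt
The ferritin and ferroportin mRNAs held 1 core each, before the coding sequence, and TFRC held 4 within its 3′ UTR. No core was found in the UTRs of the other members under these letters, which says nothing about other IRE forms. The search also found none in EPAS1, which has a known IRE. Members without a core, SLC11A2 among them, may therefore still hold an IRE.

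The summed gene counts of a library ran from 24958386 to 34313637. Levels are given as CPM, the count of a gene per 1000000 counts of its library after TMM scaling, and as the mean ± SD of 3 libraries. The epithelial keratin KRT18 lay at 376 to 669 CPM and the mesenchymal marker VIM at 2064 to 4173 CPM, whereas EPCAM and CDH1 stayed at or below 0.119 CPM. The 7 markers of blood, vessel and liver cells summed to at most 1.09 CPM in any library. FDX2 had 2 to 13 counts per library, with means of 0.136 CPM with and 0.276 CPM without Doxy at 20% O2 and of 0.202 and 0.238 CPM at 3% O2. It was therefore not higher in the libraries labelled with Doxy, it was not tested at these counts, and they do not check the removal of Doxy. Replicate 1 of the 3% O2 wo Doxy condition stood apart from the other 11 libraries. Antisense genes took 1.20% of its counts against 0.343% to 0.559% in the others, and its mean correlation with its own condition was 0.967 against 0.981 to 0.997. Where a call of the 10 genes uses it, the value without it is given. The exception is 3% O2 without Doxy against 20% O2 with Doxy, where only the number of calls without it is given.

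The clearest changes were in the receptor and in ferritin. FDX2 loss at 20% O2 raised TFRC, FTH1, FTL and FBXL5, and 3% O2 with Doxy raised TFRC, the only call there among the 9 tested genes. By condition means, TFRC stood highest in cells that kept FDX2 at 3% O2. Both ferritin mRNAs had their highest means in cells that lost FDX2 at 20% O2. For FTL the step up to that mean from 3% O2 without Doxy was not called (edgeR adjusted p = 0.0825). Calls are made with edgeR's quasi-likelihood test at an adjusted p (Benjamini-Hochberg, over all 16891 genes) under 0.05. FDX2 loss at 20% O2 gave 4 calls among the 9, all upward, where 35.3% of all tested genes were called, 17.6% upward and 17.7% downward. FDX2 loss at 3% O2 gave 2 calls, FTH1 up and TFRC down, with 7.31% of all genes called (4.2% up, 3.11% down). At 3% against 20% O2, the cells with Doxy gave 1 call, upward (background 2.02%, with 1.63% up and 0.385% down), and the cells without Doxy gave 2, TFRC up and FTH1 down (background 25.8%, with 13.9% up and 11.9% down). The response to FDX2 loss differed between 3% and 20% O2 for TFRC and FTL, both downward, with 7.29% of all genes called for that difference (3.21% up, 4.08% down). The 3 libraries of each condition did not overlap for 7 of the 9 genes after FDX2 loss at 20% O2 (52.4% of all genes) and for 5 after FDX2 loss at 3% O2 (24.6%). Between the oxygen levels they did not overlap for 4 with Doxy (15.4%) and 6 without Doxy (49.4%). The median log2 fold change of the 9 genes was 0.14 after FDX2 loss at 20% O2 and 0.11 at 3% O2, beside 0.0090 and 0.041 over all tested genes. Comparisons that share a condition, such as FDX2 loss at 20% O2 and 3% against 20% O2 with Doxy, share those libraries.

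The conditions that differ in both Doxy and oxygen were compared to place the levels in order. At 3% O2 without Doxy against 20% O2 with Doxy, 4 genes were higher and 1 was lower, where 18.3% of all genes were called (10.3% up, 8.05% down), and 5 did not overlap (32.5% of all genes). TFRC (log2 0.68), FTL (0.58), FBXL5 (0.34) and FTH1 (0.30) were higher and IREB2 (-0.26, edgeR adjusted p = 0.0499) was lower. The fit without replicate 1 of 3% O2 wo Doxy called 5 genes, each of them higher, so the IREB2 call was lost. At 3% O2 with Doxy against 20% O2 without Doxy, TFRC was higher (0.50) and FTH1 (-0.89) and FTL (-0.54) were lower, where 35.6% of all genes were called (18.1% up, 17.5% down), and 4 did not overlap (53.2%). By these tests FTH1 ran from 3% and 20% O2 with Doxy, which did not differ beyond their spread (edgeR adjusted p = 0.751), through 3% O2 without Doxy to 20% O2 without Doxy.

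**Figure D1:**
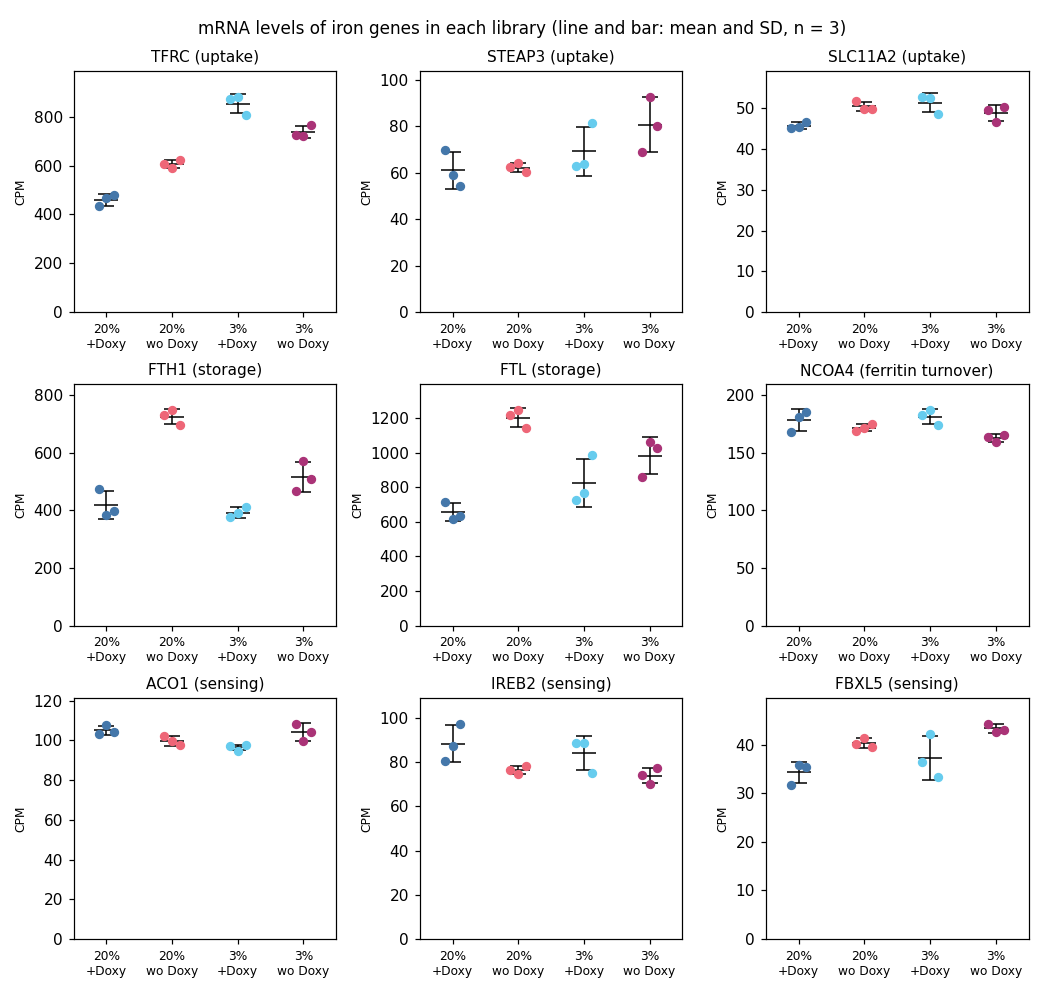
CPM of the 9 tested iron genes (y axis, from 0) in each of the 12 libraries (points) by condition (x axis), with the mean and SD of 3 libraries as line and bar. TFRC rises from 459 CPM at 20% O2 with Doxy to 854 CPM at 3% O2 with Doxy, and FTH1 and FTL peak at 725 and 1203 CPM at 20% O2 without Doxy.

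TFRC (ENSG00000072274, chr3:196027183-196082189, minus strand) had 432, 468 and 478 CPM at 20% O2 with Doxy. Without Doxy at 20% O2 its levels were 605, 589 and 622 CPM. At 3% O2 it had 871, 882 and 808 CPM with Doxy and 726, 721 and 764 CPM without Doxy. The 4 conditions formed 4 separate bands, with no library of one inside the range of another. In rising order they were 20% O2 with Doxy (459 ± 24.0 CPM), 20% O2 without Doxy (606 ± 16.4 CPM), 3% O2 without Doxy (737 ± 23.3 CPM) and 3% O2 with Doxy (854 ± 39.7 CPM). Each step in this order was called. FDX2 loss at 20% O2 raised TFRC 1.32-fold (log2 0.40, SE 0.052, edgeR adjusted p = 0.000168). At 3% O2 FDX2 loss changed it in the other direction, with a log2 fold change of -0.21 (SE 0.052, edgeR adjusted p = 0.0332). The difference of these responses was -0.61 on the log2 scale (95% interval -0.77 to -0.45, edgeR adjusted p = 0.00112) and was called under every alternative tried, with adjusted p up to 0.011. Without replicate 1 of 3% O2 wo Doxy it was -0.60 (edgeR adjusted p = 0.00318).

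The fall of TFRC after FDX2 loss at 3% O2 was the least secure of these changes. Leaving out any of 5 of the 6 libraries compared, namely replicates 1 and 2 with Doxy or replicate 1, 2 or 3 without Doxy, ended the call, with edgeR adjusted p between 0.0508 and 0.144. Without replicate 1 of 3% O2 wo Doxy it was -0.20 (edgeR adjusted p = 0.0894). Over all alternatives the adjusted p of this fall ranged from 0.00123 to 0.324, while its direction did not change. The rise of TFRC at 3% O2 with Doxy was 1.86-fold (log2 0.89, SE 0.052, edgeR adjusted p = 4.37e-06), and it missed the threshold in 1 alternative, the fit to its 6 libraries with a replicate block (edgeR adjusted p = 0.107). That fit called 12 of all 15937 genes. Without Doxy the rise of TFRC was 1.22-fold (log2 0.28, SE 0.052, edgeR adjusted p = 0.00305). Leaving out replicate 1 of 3% O2 wo Doxy gave 0.29 for the latter (edgeR adjusted p = 0.0071).

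STEAP3, the endosomal ferric reductase, was not called in any of these comparisons. It had 69.7, 59.3 and 54.2 CPM at 20% O2 with Doxy and 62.3, 64.1 and 60.4 CPM without Doxy. At 3% O2 it had 62.8, 63.7 and 81.4 CPM with Doxy and 69.1, 92.9 and 80.4 CPM without Doxy. All 3 libraries at 3% O2 without Doxy lay above those at 20% O2 without Doxy, a log2 difference of 0.38 (95% interval 0.090 to 0.66, edgeR adjusted p = 0.0544). A fit to the 6 libraries compared called STEAP3 both without a replicate block (log2 0.36, edgeR adjusted p = 0.031) and with it (log2 0.35, edgeR adjusted p = 0.0285), whereas the block over 12 libraries did not (edgeR adjusted p = 0.0998). Leaving out replicate 1 of 3% O2 wo Doxy also gave a call (log2 0.48, edgeR adjusted p = 0.0223, range over all alternatives 0.0223 to 0.195). Of its exonic bases 10.96% are shared with the antisense gene STEAP3-AS1, which had 2.93 CPM in replicate 1 of 3% O2 wo Doxy and at most 0.617 CPM in the other libraries.

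SLC11A2, the divalent metal transporter, kept within 45.0 to 52.8 CPM in all 12 libraries. Its 3 libraries at 20% O2 with Doxy (45.0, 45.5 and 46.7 CPM) lay below the 3 without Doxy (51.8, 49.7 and 49.8 CPM). The log2 difference was 0.14 (95% interval 0.027 to 0.26), with an edgeR adjusted p of 0.0544 that misses the threshold. The 3 libraries at 3% O2 with Doxy (52.8, 52.6 and 48.6 CPM) also lay above those at 20% O2 with Doxy, by 0.17 (edgeR adjusted p = 0.159).

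FTL (chr19:48965301-48966878, plus strand), the ferritin light chain, had the highest level per length of the 10 genes. At 20% O2 with Doxy it reached 747 CPM per kilobase of exon, against 206 for FTH1, 58.2 for TFRC and 43.7 for NCOA4. FTH1 shares 62.41% of its exonic bases with BEST1, so its level per length is uncertain. ACO1 and STEAP3 followed at 13.9 and 13.4 CPM per kilobase, IREB2 and FBXL5 at 8.18 and 7.499, and SLC11A2 at 4.51. FTL had 715, 618 and 634 CPM at 20% O2 with Doxy and 1220, 1247 and 1142 CPM without Doxy. FDX2 loss at 20% O2 raised it 1.84-fold (log2 0.88, SE 0.115, edgeR adjusted p = 0.000171), with all libraries without Doxy above all with Doxy. At 3% O2 it had 729, 766 and 987 CPM with Doxy and 860, 1061 and 1027 CPM without Doxy, and these ranges overlap. There the log2 difference was 0.25 (95% interval -0.0016 to 0.50, edgeR adjusted p = 0.219). Replicate 3 with Doxy was the highest of its condition, and without it the difference was 0.39 and was called (edgeR adjusted p = 0.0295). Without replicate 1 of 3% O2 wo Doxy it was 0.34 (edgeR adjusted p = 0.12).

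The response of FTL to FDX2 loss was smaller at 3% than at 20% O2 by 0.63 on the log2 scale, as the difference of -0.63 (95% interval -0.98 to -0.27, edgeR adjusted p = 0.041). This call was lost on leaving out 8 of the 12 libraries singly: replicate 2 or 3 of 20% O2 with Doxy, any of the 3 of 20% O2 wo Doxy and any of the 3 of 3% O2 wo Doxy. In those fits edgeR's adjusted p was between 0.057 and 0.101, and over all alternatives it ranged from 0.000719 to 0.101. Without replicate 1 of 3% O2 wo Doxy the difference was -0.54 (edgeR adjusted p = 0.0619). Between 20% and 3% O2 without Doxy, FTL differed by -0.29 (edgeR adjusted p = 0.0825), and all libraries at 3% O2 lay below those at 20% O2. In the 6 libraries compared alone it was called without a replicate block (-0.30, edgeR adjusted p = 0.0257) and with it (-0.31, edgeR adjusted p = 0.0315), and without replicate 1 of 3% O2 wo Doxy it was -0.20 (edgeR adjusted p = 0.207, range over all alternatives 0.000725 to 0.207). With Doxy, 3% against 20% O2 gave 0.34 (edgeR adjusted p = 0.203).

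FTH1 (chr11:61959718-61967660, minus strand), the ferritin heavy chain with the ferroxidase site, had 473, 384 and 398 CPM at 20% O2 with Doxy. Without Doxy at 20% O2 it had 730, 749 and 697 CPM, clear of the former. At 3% O2 its levels were 376, 389 and 412 CPM with Doxy and 468, 570 and 508 CPM without Doxy, again without overlap. FDX2 loss raised FTH1 1.73-fold at 20% O2 (log2 0.79, SE 0.088, edgeR adjusted p = 5.16e-05) and 1.31-fold at 3% O2 (log2 0.39, SE 0.087, edgeR adjusted p = 0.0211). The difference of the responses, -0.40 (95% interval -0.67 to -0.13), was not called (edgeR adjusted p = 0.0778, range over alternatives 0.0143 to 0.167). Leaving out replicate 1 of 20% O2 with Doxy made it -0.50 and a call (edgeR adjusted p = 0.016), and leaving out replicate 1 of 3% O2 wo Doxy made it -0.33 (edgeR adjusted p = 0.116). Without Doxy, FTH1 was lower at 3% than at 20% O2, with a log2 fold change of -0.49 (SE 0.087, edgeR adjusted p = 0.00249). With Doxy the same step in oxygen gave -0.093 (95% interval -0.28 to 0.099).

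The rise of FTH1 at 3% O2 was lost on leaving out replicate 1 or 2 with Doxy or replicate 2 or 3 without Doxy (edgeR adjusted p 0.0551 to 0.0847, range over all alternatives 0.000722 to 0.239). Without replicate 1 of 3% O2 wo Doxy it was 0.46 (edgeR adjusted p = 0.0156), and the lower level at 3% than at 20% O2 without Doxy was -0.43 (edgeR adjusted p = 0.00775). Of the exonic bases of FTH1, 62.41% are shared with BEST1 on the opposite strand, and the strand setting of the counting is not given in the sources used here. BEST1 itself had 1.68 to 35.2 CPM in 11 libraries and 95.8 CPM in replicate 1 of 3% O2 wo Doxy, the library of that condition with the least FTH1. Its part in the FTH1 values was not tested. Ferritin has many processed pseudogenes, and 25 named after FTH1 together had a mean of 24.75 counts per library, 0.162% of those of FTH1. The 3 with the most counts were FTH1P23, FTH1P16 and FTH1P2, with means of 8.58, 5.33 and 3.42 counts. The 16 named after FTL amounted to 0.0152% of FTL.

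The chains did not keep 1 ratio. FTH1 CPM divided by FTL CPM was 0.621 to 0.661 at 20% O2 with Doxy and 0.599 to 0.611 without Doxy. At 3% O2 it was 0.417 to 0.516 with Doxy and 0.495 to 0.544 without Doxy, so that every library at 3% O2 lay below every library at 20% O2. This ratio was looked at after the levels were seen and was not tested. Its FTH1 counts carry the uncertainty of the overlap with BEST1 given above.

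NCOA4, the receptor that takes ferritin to autophagosomes, stayed between 159 and 187 CPM in all libraries. The 3 libraries at 3% O2 without Doxy (164, 159 and 165 CPM) were below the 3 with Doxy (182, 187 and 174 CPM). The log2 difference was -0.15 (95% interval -0.27 to -0.043, edgeR adjusted p = 0.0931), and without replicate 1 of 3% O2 wo Doxy it was -0.16 (edgeR adjusted p = 0.16). After FDX2 loss at 20% O2 it was -0.053 (95% interval -0.16 to 0.059). SLC40A1, the iron exporter, had 7 counts in all 12 libraries together, with 8 libraries at 0 and none above 3. A count of 0 allows up to 0.0881 to 0.121 CPM at these depths, for counting error only, and no fold change is given for it.

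ACO1, which encodes the aconitase that becomes IRP1, was not called in any comparison of the main fit. Its condition means were 105 ± 2.33 CPM at 20% O2 with Doxy, 99.8 ± 2.40 CPM without Doxy, 96.5 ± 1.41 CPM at 3% O2 with Doxy and 104 ± 4.49 CPM without Doxy. In that fit the largest of its differences after FDX2 loss was 0.11 at 3% O2 (95% interval 0.0051 to 0.21), or 0.078 without replicate 1 of 3% O2 wo Doxy. GC correction called ACO1 lower after FDX2 loss at 20% O2 (log2 -0.13, edgeR adjusted p = 0.0225). The difference of its responses was 0.18 (95% interval 0.035 to 0.33, edgeR adjusted p = 0.13, range over all alternatives 0.011 to 0.4). That difference was called by DESeq2's Wald test (0.17, adjusted p = 0.048) and with GC correction (0.26, edgeR adjusted p = 0.011). IREB2 had 80.7, 87.1 and 97.4 CPM at 20% O2 with Doxy and 76.3, 74.8 and 78.1 CPM without Doxy. All of the latter were lower, the log2 fold change being -0.21 with an edgeR adjusted p of 0.0658. Of 6 fits that left out 1 library, 1 gave a call, that without replicate 1 with Doxy (edgeR adjusted p = 0.0287). Of 9 other settings, 3 gave a call. They were DESeq2's Wald test (-0.22, adjusted p = 0.0452), GC correction (-0.30, edgeR adjusted p = 4.2e-05) and GC correction with the replicate block (-0.30, edgeR adjusted p = 0.000303). The adjusted p ranged from 4.2e-05 to 0.212 over all alternatives. At 3% O2 IREB2 had 88.5, 88.6 and 75.3 CPM with Doxy and 74.2, 70.3 and 77.4 CPM without Doxy, which overlap (log2 -0.18, edgeR adjusted p = 0.203). Without replicate 1 of 3% O2 wo Doxy the difference was -0.19 (edgeR adjusted p = 0.293).

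FBXL5, the iron-sensing ligase subunit, had 31.8, 35.8 and 35.3 CPM at 20% O2 with Doxy and 40.1, 41.4 and 39.4 CPM without Doxy. FDX2 loss there raised it 1.18-fold (log2 0.23, SE 0.081, edgeR adjusted p = 0.0429). Leaving out any 1 of those 6 libraries ended this call (edgeR adjusted p 0.0622 to 0.199, range over all alternatives 0.0253 to 0.199). At 3% O2 its levels were 36.5, 42.1 and 33.2 CPM with Doxy and 44.3, 42.6 and 43.0 CPM without Doxy, and the latter were all higher. The log2 difference of 0.22 there was not called (edgeR adjusted p = 0.136) and was 0.20 without replicate 1 of 3% O2 wo Doxy (edgeR adjusted p = 0.262), and the responses at the 2 oxygen levels differed by -0.018 (95% interval -0.27 to 0.23).

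**Figure D2:**
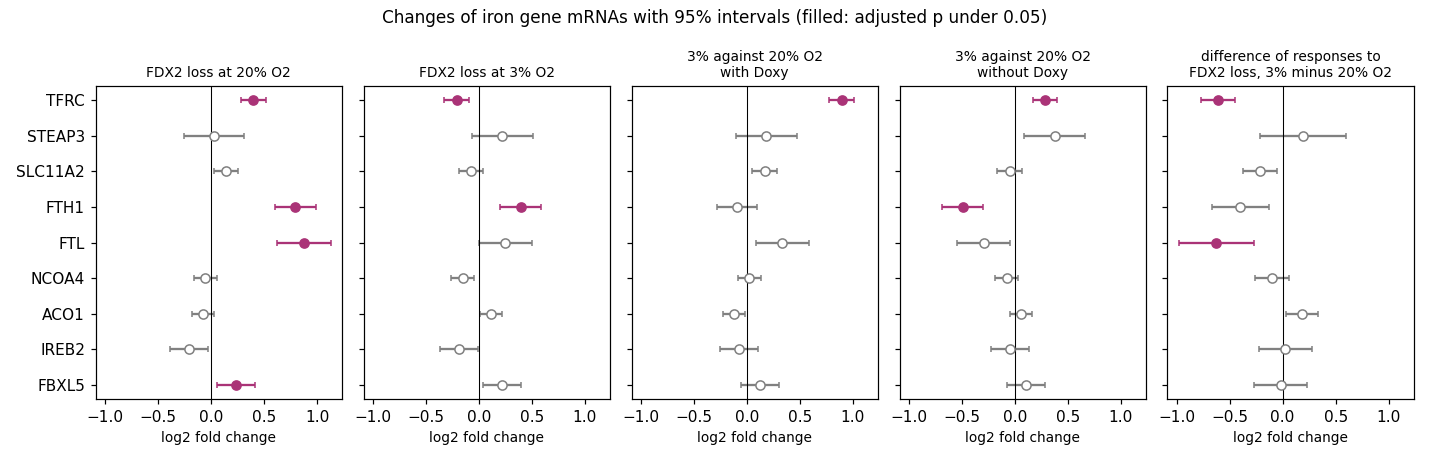
Log2 fold changes (x axis) of the 9 tested iron genes (y axis) in 5 comparisons (panels), with 95% intervals as bars and filled points where the edgeR adjusted p is under 0.05. TFRC lies at 0.40 after FDX2 loss at 20% O2 and at -0.21 after FDX2 loss at 3% O2, whereas FTH1 lies at 0.79 and 0.39.

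Another 58 genes of iron and heme handling, listed by role, put these changes beside their pathway, and 44 of them were tested. FDX2 loss at 20% O2 raised 11 and lowered 10 of the 44, where 17.6% of all tested genes were called higher and 17.7% lower. At 3% O2 it raised 3 and lowered 3, where 4.2% of all genes were called higher and 3.11% lower. With Doxy, 3% O2 gave 0 calls among the 44 with edgeR and 0 with DESeq2. Few of all genes were called there, 2.02% by edgeR and 620 of 16891 by DESeq2. Of the 44, 6 had an unadjusted edgeR p under 0.05, and the share of all genes at that p was not taken. Without Doxy, 3% against 20% O2 gave 6 higher and 8 lower, where 13.9% of all genes were called higher and 11.9% lower. Leaving out replicate 1 of 3% O2 wo Doxy ended the calls of PCBP1 (log2 -0.30, edgeR adjusted p = 0.104) and PCBP2 (-0.17, edgeR adjusted p = 0.111) after FDX2 loss at 3% O2, of SLC48A1 (-0.31, edgeR adjusted p = 0.0975) between oxygen levels without Doxy and of HFE (0.47, edgeR adjusted p = 0.0702) in the difference of responses, and no other call of these 44 in those 3 comparisons. The median log2 fold change after FDX2 loss at 20% O2 was -0.045 over the 44 genes and 0.0090 over all tested genes.

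The largest called change after FDX2 loss at 20% O2 among the 44 was that of EPAS1, which encodes the hypoxia-inducible factor HIF-2α and has a known IRE in its 5′ UTR. EPAS1 had 5.81, 5.07 and 5.85 CPM at 20% O2 with Doxy and 20.2, 19.5 and 18.7 CPM without Doxy, far apart. At 3% O2 it had 5.66, 7.37 and 7.46 CPM with Doxy and 9.93, 11.8 and 11.4 CPM without Doxy. FDX2 loss raised it by 1.80 on the log2 scale at 20% O2 (SE 0.114, edgeR adjusted p = 1.12e-06) and by 0.70 at 3% O2 (SE 0.113, edgeR adjusted p = 0.00492). The call at 3% O2 was lost in the fits to the 6 libraries compared alone, without the replicate block (edgeR adjusted p = 0.0685) and with it (edgeR adjusted p = 0.168, the highest over all alternatives). Of all 16012 genes, those fits called 218 and 1. The responses differed by -1.10 (95% interval -1.45 to -0.75, edgeR adjusted p = 0.00281). Of the 4 tested mRNAs listed for an IRE outside the 10 genes, 3 rose after FDX2 loss at 20% O2, where 17.6% of all genes did. They included CDC14A (log2 0.41) and CDC42BPA (log2 0.15). The CDC42BPA call was lost on leaving out any 1 of the 6 libraries compared (edgeR adjusted p 0.0648 to 0.204). The search above found a core in the 3′ UTR of CDC14A, chr1:100518583-100518611, plus strand, shown for comparison with TFRC, and none in the UTRs of EPAS1 or CDC42BPA.
CDC14A 3′ UTR: tatttacatgtaCAGTGTtacattatata

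Among heme genes, FDX2 loss at 20% O2 raised 3 and lowered 2 of 9, beside 17.6% and 17.7% of all genes. HMOX1, the inducible oxygenase that frees iron from heme, had 10, 8.15 and 6.70 CPM with Doxy and 18.6, 17.7 and 18.5 CPM without Doxy. The rise was 1.14 on the log2 scale (SE 0.144, edgeR adjusted p = 0.000131), and at 3% O2 it was 0.54 and not called (edgeR adjusted p = 0.051). SLC48A1, a heme transporter of lysosomes, and BLVRB, a biliverdin reductase, rose by 0.55 and 0.45, and HMOX2, the constitutive oxygenase, and FLVCR1 fell by 0.39 and 0.20. The FLVCR1 call was lost on leaving out any of 5 libraries, namely replicate 2 or 3 with Doxy or any of the 3 without Doxy (edgeR adjusted p 0.0588 to 0.151). At 3% O2 the single call of the group was LRP1, a receptor for heme bound to hemopexin (log2 0.61, edgeR adjusted p = 0.0475), which was lost without replicate 1 or 2 with Doxy or replicate 2 or 3 without Doxy (edgeR adjusted p 0.101 to 0.16). Over all genes, 7.31% were called there.

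Among 9 further uptake genes, FDX2 loss at 20% O2 raised the ferric reductases CYBRD1 (log2 0.54) and STEAP2 (0.42) and the metal carrier SLC39A14 (0.16) and lowered EXOC6 (-0.32), an exocyst subunit. Over all genes, 17.6% were called higher and 17.7% lower. The SLC39A14 call was lost without replicate 2 or 3 with Doxy or any replicate without Doxy (edgeR adjusted p 0.0721 to 0.167), and that of EXOC6 without replicate 2 with Doxy or replicate 2 or 3 without Doxy (0.0659 to 0.0812). CYBRD1 rose at 3% O2 too (log2 0.32, edgeR adjusted p = 0.0216), a call lost without replicate 1 or 2 with Doxy or replicate 2 or 3 without Doxy (0.0581 to 0.0708). Of 4 tested iron chaperones, which hand iron to other proteins, FDX2 loss at 20% O2 lowered 3, where 17.7% of all genes were called lower. PCBP1, PCBP2 and GLRX3 fell by 0.54, 0.32 and 0.26, and BOLA2B, of very low count, was not called (edgeR adjusted p = 0.148). At 3% O2 PCBP1 (log2 -0.31) and PCBP2 (-0.24) were called, with calls that did not hold when PCBP1 lost any library (edgeR adjusted p 0.0513 to 0.109) or PCBP2 lost replicate 1 or 2 of either condition (0.0835 to 0.141). Over all genes, 3.11% were called lower there. PCBP1 shares 52.23% and PCBP2 32.69% of exonic bases with other genes, so their counts are uncertain.

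Of 6 mitochondrial iron genes, FDX2 loss at 20% O2 changed ABCB10 and no other. ABCB10, an inner-membrane transporter that stabilizes the iron importer mitoferrin, had 48.1, 49.0 and 50.3 CPM with Doxy at 20% O2. Without Doxy it had 30.05, 30.7 and 32.0 CPM. It fell by 0.67 on the log2 scale (SE 0.063, edgeR adjusted p = 1.78e-05), against -0.16 at 3% O2 (edgeR adjusted p = 0.165). HFE, a partner of the transferrin receptor, fell at 20% O2 (log2 -0.58). It was the 1 call among 4 genes of export and the hepcidin axis, beside 35.3% of all genes. Among 8 partners of FBXL5 and NCOA4, WDR45 and TAX1BP1, both of autophagy, rose at 20% O2 by 0.66 and 0.43. CUL1, the scaffold of the FBXL5 ligase, and HERC2, a ligase that acts on NCOA4, fell by 0.44 and 0.45. Over all genes at 20% O2, 17.6% were called higher and 17.7% lower. None of these 8 was called at 3% O2, where 7.31% of all genes were. A difference of the responses was called for CUL1 alone among them, beside 7.29% of all genes.

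Comparing oxygen levels in cells without Doxy, EPAS1 (log2 -0.81) and HMOX1 (-0.77) were lower at 3% O2, as were STEAP2 (-0.51), BMP2 (-0.43), SLC48A1 (-0.41), SLC39A14 (-0.32), TAX1BP1 (-0.32) and EXOC6 (-0.29). HFE (0.67), HERC2 (0.41), ABCB10 (0.35), CUL1 (0.35) and PCBP1 (0.29) were higher. TFR2 was also called higher (2.33, SE 0.542) but had only 2 to 21 counts per library. All these 14 calls are by edgeR's adjusted p, and 10 of them held in each fit that left out 1 library. BMP2 was lost without replicate 3 of 3% O2 wo Doxy (edgeR adjusted p = 0.0669). SLC48A1 was lost in 5 of the 6 such fits, all but that without replicate 3 of 20% O2 wo Doxy (0.0537 to 0.0975), and EXOC6 in 5, all but that without replicate 1 of 3% O2 wo Doxy (0.0746 to 0.145). EXOC6 was also lost in 5 of 9 other settings, and with GC correction its difference was -0.061 (edgeR adjusted p = 0.672, up to 0.71 over all alternatives). PCBP1 was lost without replicate 1 or 3 of 20% O2 wo Doxy or replicate 2 or 3 of 3% O2 wo Doxy (0.051 to 0.0946).

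**Figure D3:**
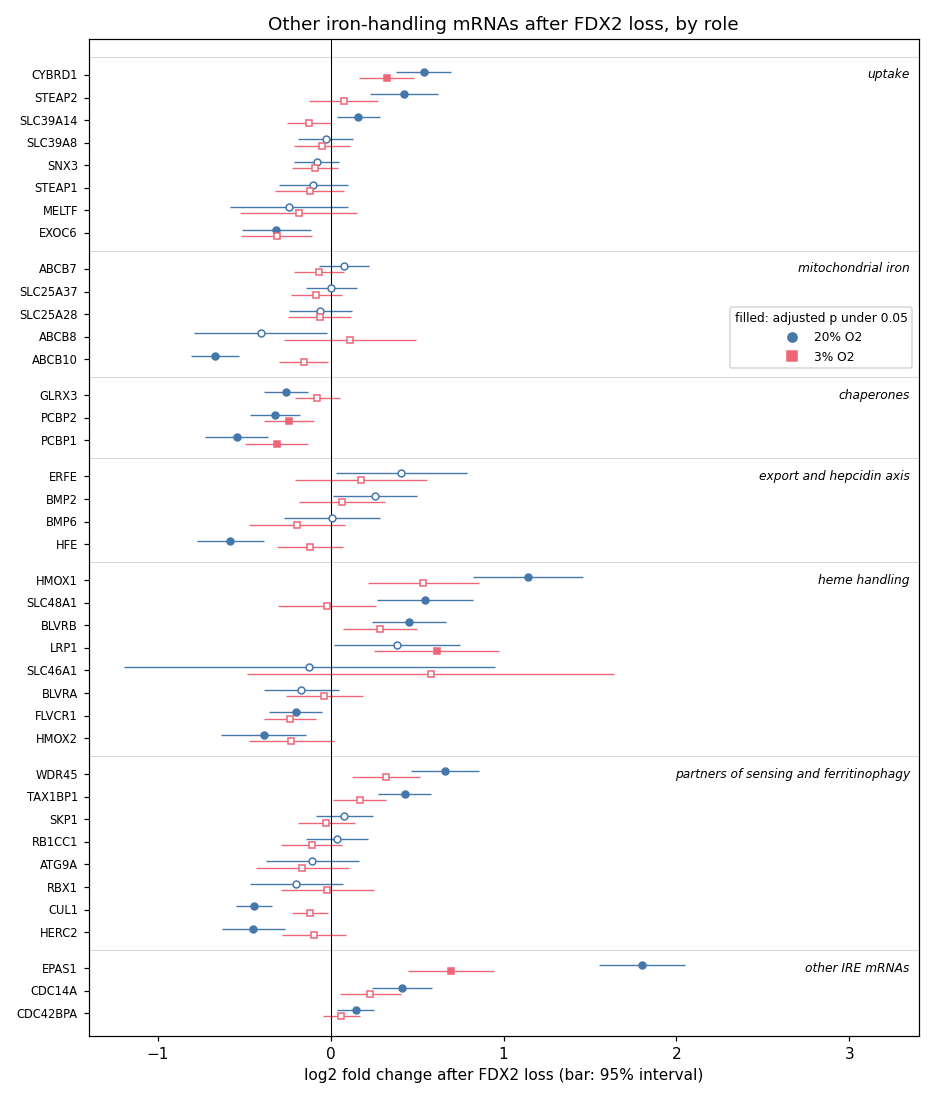
Log2 fold changes after FDX2 loss (x axis, 95% interval as bar) at 20% O2 (circles) and 3% O2 (squares) for 39 iron and heme genes outside the 10, grouped by role (y axis), with filled symbols where the edgeR adjusted p is under 0.05. EPAS1 lies at 1.80 and 0.70 and ABCB10 at -0.67 and -0.16; 3 tested genes with a mean under 1 CPM (TFR2, FLVCR2, BOLA2B) are not drawn.

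The genes most like TFRC over the 12 libraries, by Pearson's r of log2(CPM + 0.5) taken across the 10764 genes whose mean level reached 5 CPM, were BNIP3L (r = 0.971), VLDLR (0.969) and PAM (0.954). BNIP3L, a mitophagy receptor, had mean levels of 36.3, 48.8, 103 and 87.7 CPM in the order 20% O2 with and without Doxy and 3% O2 with and without Doxy. Those most like FTH1 were GNPDA1, CLCN4 and HLA-B (each r = 0.983). GNPDA1, an enzyme of hexosamine breakdown, had 117, 173, 111 and 132 CPM in the same order. The 12 points fall into 4 conditions and share their scaling, so r is a description.

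Promoters were looked at because TFRC, unlike the ferritins, was highest at 3% O2. Among 35116 RefSeq promoters on GRCh38.p14, taken from 250 bases before to 50 after a start, 21.4% held the letters ACGTG on either strand, the core that hypoxia-inducible factors bind. Promoters of 9 of the 10 genes were in that table, all but FTH1, and a promoter each of TFRC, FTL and FBXL5 held the core. These 9 genes had 14 promoters there. A count of genes with the core in any promoter cannot be set directly against a share of promoters. The TFRC site lies 88 bases before the RefSeq start of that table, and across the end of the longer GENCODE gene span given above, chr3:196082162-196082190, minus strand, with the core in capitals.
TFRC promoter: cctcgcgagcgtACGTGcctcaggaagtg
The letters TGACNNNGC, the core of the antioxidant response element, were in 13.3% of promoters and in a promoter each of FBXL5 and NCOA4, again a count of genes beside a share of promoters. A match is a run of letters and does not show binding.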

How the data were processed

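The deposited values are raw counts of reads per gene and library, which the authors did not normalize. The submitters' processing notes name STAR, featureCounts, DESeq2 and GRCh38. The versions of STAR and featureCounts, the strand setting and the handling of multiply aligned reads are not given in the sources used here. Libraries came from poly(A) RNA and were read on a DNBSEQ-T7. The software here was edgeR 4.0.16 on limma 3.58.1 and R 4.3.3, with DESeq2 1.42.0 as an alternative. filterByExpr (minimum count 10, total 15) kept 16891 of 32966 genes with a count. After TMM scaling (factors 0.940 to 1.07), the quasi-likelihood fit took 1 mean per condition over the 12 libraries and left 8 residual degrees of freedom, and p-values were adjusted by Benjamini-Hochberg over all genes tested. SE and 95% intervals come from that model. Members and lists were chosen with earlier results of these data known. All 10 members were named; of the wider list, the called genes with the largest changes, up to 3 per direction and role. Of the wider list, 2 genes are counted but not reported here by name. Coordinates, exon overlaps and UTRs are GENCODE release 29, and promoters are RefSeq's. Steps were tested on simulated counts. Alternatives were DESeq2 size factors, other filters, DESeq2's Wald test, the compared conditions alone, a replicate block, a correction for GC content (lowess span 0.3), stricter thresholds and leaving out each library. Deviations of same-numbered libraries correlated at 0.227 to 0.510 between 20% and 3% O2 without Doxy. In no other pair of conditions did they stay over 0.1 throughout. Same-numbered libraries may therefore be paired in that comparison. The main fit used no pairing in any comparison, and the replicate block was an alternative only. Values with the block in that comparison are given above for STEAP3 and FTL.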

Additional observations from a re-analysis of the deposited data

Results flagged for a closer look

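The response to FDX2 loss differed between 3% and 20% O2, by the test of the difference itself (edgeR's quasi-likelihood test, Benjamini-Hochberg adjustment), for 6 of the genes listed. TFRC differed by -0.61 on the log2 scale (adjusted p = 0.00112) and FTL by -0.63 (adjusted p = 0.041). EPAS1 differed by -1.10 (adjusted p = 0.00281). In the other direction ABCB10 differed by 0.51 (adjusted p = 0.00719), CUL1 by 0.32 (adjusted p = 0.0164) and HFE by 0.46 (adjusted p = 0.0485). EPAS1, ABCB10 and TFRC kept their call in each fit that left out 1 library. The call was lost in 8 of 12 such fits for FTL (adjusted p 0.057 to 0.101) and in 10 of 12 for HFE, in all but those without replicate 3 of 20% O2 with Doxy or replicate 3 of 3% O2 with Doxy (0.0702 to 0.116). For CUL1 it was lost in 4 of 12, those without any 1 of the 3 libraries of 20% O2 wo Doxy or without replicate 2 of 3% O2 with Doxy (0.0663 to 0.0784). Conditions of 3 libraries are too small for a test of single outlying values.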

How the results depend on the processing

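Calls are counted among the 9 tested iron genes and the 44 tested genes of the wider list. The calls over all 16891 genes moved as well. After FDX2 loss at 20% O2 the main fit called 5961 and GC correction 7484. At 3% O2 these 2 fits called 1235 and 2458. Between oxygen levels they called 341 and 869 with Doxy and 4360 and 5234 without Doxy. For the difference they called 1231 and 2723. DESeq2 called 1925 at 3% O2 and 1932 for the difference. After FDX2 loss at 20% O2 the 9 gave 4 calls, against 7 with GC correction (4 up, 3 down, the latter NCOA4, ACO1 and IREB2), 7 with replicate block and GC correction and 2 at 1.5-fold. After FDX2 loss at 3% O2 they gave 2, against 1 with no filter, 5 with GC correction and 0 with a replicate block over 12 libraries or in the compared conditions alone, with those conditions alone, at adjusted p under 0.01 and at 1.5-fold. The block over 12 libraries called 676 of all 16891 genes there. The compared conditions alone gave 218 of 16012, and 1 with the block. At 3% against 20% O2 with Doxy the 9 gave 1, against 0 with the block in the compared conditions alone, 3 with GC correction and 2 with block and GC correction. The block in the compared conditions alone called 12 of all 15937 genes. Without Doxy the 9 gave 2, against 4 with 10 counts in every library, DESeq2 or the compared conditions alone with or without the block, 6 with GC correction, 5 with block and GC correction and 0 at 1.5-fold. Over all genes the compared conditions alone gave 5589 of 16357, and 5081 with the block. For the difference of responses the 9 gave 2, against 1 with the block over 12 libraries or at 0.01, 5 with DESeq2 and 4 with GC correction. For 3% O2 without Doxy against 20% O2 with Doxy they gave 5, against 3 with no filter, the block over 12 libraries or the compared conditions alone, 0 with the block in those alone, 2 at 0.01 and 1 at 1.5-fold. In those conditions alone 1302 of 15984 genes were called, and 13 with the block. For 3% O2 with Doxy against 20% O2 without Doxy the 9 gave 3, against 5 with GC correction, with or without the block, and 1 at 1.5-fold. The wider list gave 6 after FDX2 loss at 3% O2, against 2 with the block over 12 libraries, 0 with the compared conditions alone with or without the block, 11 with DESeq2 or block and GC correction and 14 with GC correction. With Doxy it gave 0 between oxygen levels, against 2 with GC correction and 1 with block and GC correction. Without Doxy it gave 14, against 22 with the compared conditions alone or block and GC correction. For the difference it gave 4, against 2 with no filter or the block over 12 libraries, 8 with DESeq2, 11 with GC correction and 9 with block and GC correction.

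Leaving out 1 library gave 3 to 4 calls among the 9 (17 to 23 in the wider list) for FDX2 loss at 20% O2, 0 to 3 (2 to 8) at 3% O2, 1 (0) for oxygen with Doxy, 2 to 3 (10 to 16) without Doxy and 1 to 3 (2 to 7) for the difference. It gave 3 to 6 for 3% O2 without Doxy against 20% O2 with Doxy and 3 to 4 for the reverse pairing. These fits tested 17208 to 17392 genes. Over all genes they called 4423 to 5575 for FDX2 loss at 20% O2 and 581 to 1605 at 3% O2. For oxygen they called 190 to 388 with Doxy and 2321 to 4200 without Doxy. They called 520 to 2191 for the difference, and 1717 to 3892 and 4483 to 5415 for those 2 pairings.

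Sign changes came only in values near 0 that had not been called. STEAP3 after FDX2 loss at 20% O2 became -0.0072 with no filter, and leaving out 1 library gave -0.056 to 0.12. Between oxygen levels with Doxy, leaving out 1 library gave -0.028 to 0.054 for NCOA4 and -0.14 to 0.0025 for IREB2. GC correction turned 3 genes between oxygen levels without Doxy: SLC11A2 to 0.071, NCOA4 to 0.040 and IREB2 to 0.15, which was then called (adjusted p = 0.00804), and with the block to 0.071, 0.040 and 0.15. For the difference of responses, NCOA4 became 0.0076 and 0.0078 with GC correction without and with the block, and FBXL5 became 0.12 in both. Leaving out 1 library gave -0.090 to 0.067 for FBXL5 and -0.047 to 0.084 for IREB2. Among all values of single iron genes under an alternative, 612 kept their direction and side of the threshold, 41 passed it newly, 36 no longer passed it and 22 changed sign. The causes were not tested. With 3 libraries a condition and a biological coefficient of variation of 16.3%, small changes of these genes may not be detectable.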
